A study of Mus musculus with 15 samples.

Results

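Spp1, Gpnmb, Lgals3, Fabp5, Cd9 and Cd44 are 6 of the 24421 genes counted in microglia, the macrophages of the brain itself, that were sorted from mice after an ischemic stroke. They are genes that macrophages express when loaded with lipid and debris, and they were followed across wild-type days, reporter states and Yy1 genotypes. The 6 were taken by gene symbol in each of the 3 count tables and were found in all of them. They were selected on their levels in the wild-type and EGFP reporter libraries, so those levels are given as a description with no test.

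Wild-type mice gave 1 library after sham surgery and 1 for each of days 1, 6, 14 and 28 after stroke. Mice carrying an Igf1-Egfp transgene, with EGFP as a reporter for the growth factor gene Igf1, were sorted into EGFP-positive and EGFP-negative cells, with 1 library per state on each of days 6 and 14. The Yy1 libraries were all of day 6, with 3 from Yy1flox/flox mice (floxed controls) and 3 from Cx3cr1-CreER;Yy1flox/flox mice (Yy1-deleted). Stroke meant closing the middle cerebral artery for 60 minutes in male mice of 8 to 24 weeks, and sham surgery left the artery open. All groups were sorted from forebrain by intermediate CD45 and CD11b staining. The Yy1 libraries of each genotype are biological replicates per the labels, and the wild-type mice were C57BL/6J. Both Yy1 groups carry floxed Yy1 alleles and only the deleted group carries Cre, and what Cre and the deletion each do cannot be told apart. Cx3cr1-CreER is a drug-inducible Cre driven from a gene that microglia, border macrophages and many monocytes express, and the inducing treatment is not given in the sources used here. How many mice went into each wild-type or EGFP library is also not given there per library.

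Macrophages that take up dying cells and myelin must sort lipid and membrane that they cannot burn at once, and they do so in lysosomes and lipid droplets. Spp1 encodes osteopontin, a secreted matrix protein bound by integrins and by the CD44 receptor. Lgals3 encodes galectin-3, a lectin that binds galactoside sugars outside cells and on damaged lysosomes. Gpnmb encodes a membrane glycoprotein of lysosomes, Fabp5 a carrier of fatty acids inside the cell, Cd9 a tetraspanin that organises membrane proteins, and Cd44 the main receptor for hyaluronan. The 6 often appear together in descriptions of foam cells and of microglia around damaged myelin.

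On GRCm38 the genes lie apart from each other. Spp1 (chromosome 5, 104435118 to 104441050), Gpnmb (chromosome 6, 49036546 to 49070929), Lgals3 (chromosome 14, 47367751 to 47386160) and Fabp5 (chromosome 3, 10012548 to 10016607) are on the plus strand. Cd9 (chromosome 6, 125460266 to 125494791) and Cd44 (chromosome 2, 102811141 to 102901665) are on the minus strand. All are protein coding in GENCODE. The annotation places a short gene of unknown status over Spp1, antisense or opposite-strand transcripts over Cd9 and a small nuclear RNA over Cd44, none of which is in the tables. The use of strand in the counting is not stated, so reads from such transcripts could not be separated. Fabp5 has near-identical processed copies elsewhere in the mouse genome, and 5 of its 6 values in the Yy1 table were not whole numbers, so its values are uncertain.

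RefSeq start sites were matched for 5 of the 6 genes, all but Fabp5. The promoters of the 5 genes that passed the Yy1 test described further on are shown because 4 of these genes fell together and Cd9 rose. Each is the 250 bases before a RefSeq start site on GRCm38.p6, read 5′ to 3′ on the strand of the gene. Capitals mark a match to 1 of 5 motifs searched on both strands. For Spp1, which has a pair of start sites in RefSeq, the upstream one is shown, and the RefSeq start of Lgals3 lies inside its GENCODE span. The regions are chr5:104434861-104435110 (plus strand), chr6:49036268-49036517 (plus), chr14:47373610-47373859 (plus), chr2:102901666-102901915 (minus) and chr6:125494761-125495010 (minus), in the order below.
Spp1: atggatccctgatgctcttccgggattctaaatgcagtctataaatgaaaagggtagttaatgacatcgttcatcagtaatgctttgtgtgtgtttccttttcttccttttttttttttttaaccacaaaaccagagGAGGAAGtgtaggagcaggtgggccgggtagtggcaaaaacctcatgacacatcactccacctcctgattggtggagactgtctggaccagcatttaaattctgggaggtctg
Gpnmb: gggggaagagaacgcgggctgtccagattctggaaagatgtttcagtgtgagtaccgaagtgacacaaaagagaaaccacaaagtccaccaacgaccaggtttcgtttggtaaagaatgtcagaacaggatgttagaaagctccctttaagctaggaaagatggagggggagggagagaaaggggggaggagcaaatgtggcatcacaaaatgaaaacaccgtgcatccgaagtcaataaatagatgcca
Lgals3: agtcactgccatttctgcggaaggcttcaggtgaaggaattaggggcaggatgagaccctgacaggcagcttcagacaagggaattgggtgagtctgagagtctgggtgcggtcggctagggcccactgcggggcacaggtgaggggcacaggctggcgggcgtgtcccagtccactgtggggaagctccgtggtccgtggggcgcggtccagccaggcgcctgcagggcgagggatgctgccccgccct
Cd44: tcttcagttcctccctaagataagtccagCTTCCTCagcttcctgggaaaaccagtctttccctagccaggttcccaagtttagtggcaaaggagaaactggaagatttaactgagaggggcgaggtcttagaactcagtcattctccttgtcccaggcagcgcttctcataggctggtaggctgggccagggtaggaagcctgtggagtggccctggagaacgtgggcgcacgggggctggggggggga
Cd9: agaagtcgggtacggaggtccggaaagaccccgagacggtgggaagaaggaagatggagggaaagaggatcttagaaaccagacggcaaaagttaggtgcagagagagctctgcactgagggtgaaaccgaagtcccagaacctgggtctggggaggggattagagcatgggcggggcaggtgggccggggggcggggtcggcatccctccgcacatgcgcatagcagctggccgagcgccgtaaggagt

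The motifs were AP-1 (TGANTCA), the E-box of lysosomal and pigment cell factors (CACGTG), YY1 (AANATGGC), PU.1 (GAGGAAG) and C/EBP (TTGCNNAA), searched in the 250 bases before and 50 after each start. Spp1 held a PU.1 match starting at position -113 and Cd44 held 1 on the opposite strand at -221. Gpnmb held an AP-1 match (TGACTCA) at position 9 after its start, outside the bases printed. The second Spp1 promoter held a C/EBP match (TTGCAGAA) at -156. No match to the YY1 or E-box letters was found in the 6 promoters of these genes, and Lgals3 and Cd9 had no match to any of the 5 motifs. Over 32851 RefSeq promoters of 300 bases, 13.6% held the PU.1 letters, 7.81% AP-1, 10.8% C/EBP, 6.05% YY1 and 7.15% the E-box. The matches describe these windows and show no binding.

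Total counts per library, in units of 1e6 (M), were 16.8 to 52.6 M in the wild-type and day 6 EGFP table, 23.1 to 24.6 M in the day 14 EGFP table and 10.5 to 13.9 M in the Yy1 table. Homeostatic microglial markers were present in every library, with all 13 detected. The libraries of days 14 and 28 held counts for fewer genes (11823 and 9886) than sham (16009). As a check of the reporter sort, Igf1 had 813 counts per 1e6 counts (CPM) with EGFP and 49.5 CPM without it on day 6, and 33.5 and 11.1 CPM on day 14. Where counts were whole, 68.7% to 90.9% of the counts from 1 to 20 were even. Counting intervals of the fold ratios were therefore computed on halved counts, a choice made after seeing the data, and they cover counting error only.

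In wild-type microglia Spp1, Gpnmb, Lgals3 and Fabp5 stood far above sham on every day after stroke, Cd44 did so on days 1, 6 and 28 and was 3.33-fold above sham on day 14, while Cd9 was already abundant in sham and hardly moved. Levels are CPM scaled by TMM, a normalisation that equalises the bulk of genes between libraries. The size rule asked for a log2 ratio to sham of 2 in either direction (on CPM plus 1), provided that either library had 20 CPM or more. By this rule 4, 5, 3 and 4 of the 6 genes were higher on days 1, 6, 14 and 28, and none was lower. Over all genes considered the rule was met upwards by 5.59%, 6.25%, 12.9% and 11.1% and downwards by 2%, 0.0846%, 6.82% and 15.2% on these days. The 4 comparisons share the sham library. Since the genes were chosen with these levels known, nothing is read from the counts.

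Spp1 had 7.12 CPM in sham (380 counts), then 5915, 745, 1350 and 126 CPM on days 1, 6, 14 and 28. The day 1 library was the highest and day 14 lay above day 6. The fold over sham was 830 on day 1 (95% counting interval 720 to 963) and 17.7 on day 28 (15.2 to 20.7). Day 28 lay 10.7-fold under day 14. On day 1, Spp1 alone took 0.632% of all counts in the library.

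**Figure D1:**
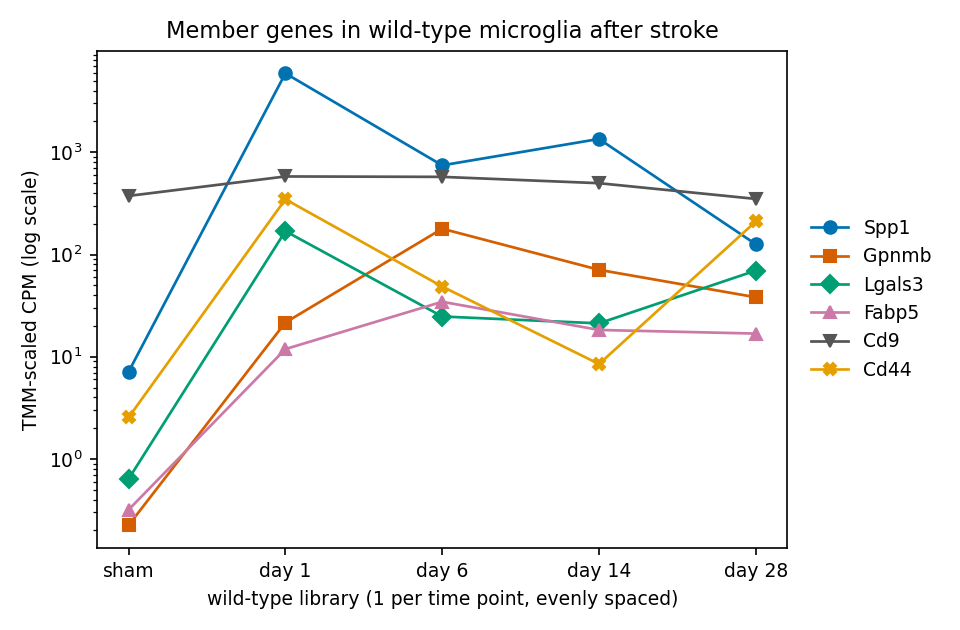
TMM-scaled CPM (log axis) of the 6 genes in the 5 wild-type libraries, sham and days 1, 6, 14 and 28 after stroke. Each point is 1 library, and the lines only join points of the same gene. Spp1, Lgals3 and Cd44 are highest on day 1 and Gpnmb and Fabp5 on day 6, while Cd9 stays between 350 and 580 CPM.

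Lgals3 and Cd44 were likewise highest on day 1, and they were high again on day 28. Lgals3 had 0.637 CPM in sham (34 counts), then 169 CPM, 24.8 CPM, 21.2 CPM and 69.7 CPM on days 1, 6, 14 and 28. Cd44 had 2.55 CPM in sham, then 347 CPM, 48.6 CPM, 8.49 CPM and 210 CPM. Both genes thus had their lowest values after stroke on day 14, where Cd44 missed the size rule with a log2 ratio of 1.42. For Lgals3 the ratio of day 14 to day 6 was 0.857, with a counting interval of 0.724 to 1.011 on halved counts. On the counts as deposited the interval was 0.762 to 0.963, so whether these days differ beyond counting error depends on the halving. Between days 14 and 28 Cd44 was 24.8-fold higher (19.8 to 31.5) and Lgals3 3.28-fold higher (2.81 to 3.86).

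Gpnmb and Fabp5 followed a later course, with the highest wild-type value on day 6. Gpnmb had 0.225 CPM in sham (12 counts), then 21.6 CPM, 179 CPM, 70.8 CPM and 38.2 CPM on days 1, 6, 14 and 28. Its fold over sham on day 6 was 795, with a wide counting interval (365 to 2167) that reflects the 12 counts in sham. Fabp5 had 0.319 CPM in sham (17 counts), then 11.9 CPM, 34.5 CPM, 18.3 CPM and 16.9 CPM. Fabp5 passed the size rule on day 6 alone because its other values lay under 20 CPM, although its log2 ratio was at least 3.29 on each day. On day 6 against day 1 Gpnmb was 8.28-fold higher (7.57 to 9.08) and Fabp5 2.90-fold higher (2.54 to 3.34), whereas Spp1, Lgals3 and Cd44 were 7.94-fold, 6.84-fold and 7.14-fold lower.

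Cd9 had 374 CPM in sham and 580, 575, 498 and 350 CPM on days 1, 6, 14 and 28. Its largest ratio to sham was 1.55-fold on day 1 (1.51 to 1.59), and on day 28 its ratio was 0.935-fold (0.901 to 0.970). The direction on day 28 turned with the scaling, from a log2 ratio of -0.10 to 0.03 with RLE size factors. In all, the 6 genes took 0.039% of the counts in sham and 0.753%, 0.169%, 0.215% and 0.0813% on days 1, 6, 14 and 28. These values describe single libraries, with no spread between mice. In bulk samples, a change in the share of cells that express a gene and a change in RNA per cell cannot be told apart.

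Per kilobase of annotated exon, which lets genes be compared, Cd9 was the highest of the 6 in sham at 183 CPM per kb, followed by Spp1 at 4.32 and the other 4 genes at 0.0345 to 0.376. On day 1 Spp1 led with 3589 CPM per kb, ahead of Cd9 (284), Lgals3 (91.1) and Cd44 (51.2), with Fabp5 (3.33) and Gpnmb (3.32) level at the bottom. On day 28 the order was Cd9 (171 CPM per kb), Spp1 (76.4), Lgals3 (37.5), Cd44 (31.1), Gpnmb (5.86) and Fabp5 (4.72). Spp1 was thus above Cd9 on days 1, 6 and 14 and below it in sham and on day 28. The exon lengths join all annotated transcripts and are longer than the main transcript of some genes, which lowers their level per kb.

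Markers of other cells also differed between these libraries. The summed level of 12 monocyte markers was 67.5 CPM in sham and 1671, 1502, 2192 and 2546 CPM on days 1, 6, 14 and 28, with at most 1 marker at 0 counts per library. Fn1, the fibronectin gene, made up most of these sums on days 1, 6 and 14, with 1142, 1361 and 2095 CPM, while sham had 45.2 CPM of it and day 28 had 757 CPM. The monocyte genes Ccr2, Ly6c2 and Chil3 had 7.55, 1.86 and 2.74 CPM in sham and were below that on day 14 (0.925, 0.925 and 0.109 CPM), whereas on day 28 they had 582, 42.0 and 158 CPM. The summed level of 10 neutrophil markers was 704, 2421, 852, 410 and 2999 CPM, with 5 of the 10 at 0 on day 14. Csf3r made up most of the neutrophil sum in sham (654 CPM) and on day 14 (399 CPM). The neutrophil sum was high on days 1 and 28, the wild-type days on which Lgals3 and Cd44 were highest. The EGFP-positive library of day 6 had more of both genes than any wild-type library (330 and 360 CPM). Its monocyte sum was 1823 CPM and its neutrophil sum 440 CPM, of which Csf3r made up 284 CPM. The 13 homeostatic microglial genes summed to 39170 CPM in sham and to 9687, 21110, 12450 and 18440 CPM on the same days. The 15 endothelial and mural markers summed to 297 CPM in sham, 767, 3549 and 6888 CPM on days 1, 6 and 14, and 31.8 CPM on day 28. The part of these cells in the levels of the 6 genes was not tested.

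Among EGFP-positive cells on day 6, Gpnmb, Spp1 and Fabp5 stood 14.4-fold to 31.9-fold above EGFP-negative cells of the same day, Lgals3 about 2.10-fold above, Cd9 slightly above, and Cd44 below. The size rule between EGFP states was an absolute log2 ratio of 1 with 20 CPM or more in either library. It was met upwards by 4 of the 6 genes on day 6 and by 4 of the 6 on day 14, and downwards by none. Of all genes considered, 7.53% met it upwards and 11.9% downwards on day 6, against 11.2% and 10.9% on day 14. Nothing is read from these counts either, since reporter levels were in view when the genes were chosen.

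With 123 CPM in EGFP-negative and 3913 CPM in EGFP-positive cells, Gpnmb showed a 31.9-fold difference on day 6 (95% counting interval 30.6 to 33.2). Spp1 had 400 CPM and 7628 CPM (19.1-fold, 18.7 to 19.5). Fabp5 had 18.8 CPM and 271 CPM (14.4-fold, 12.96 to 16.1). The wild-type library of the same day, sorted without regard to a reporter, lay between the 2 EGFP libraries for these 3 genes, and closer to EGFP-negative cells.

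Lgals3 and Cd44 were arranged differently. Lgals3 had 24.8 CPM in the wild-type library, 157 CPM in EGFP-negative and 330 CPM in EGFP-positive cells. Cd44 had 48.6 CPM in the wild-type library, 569 CPM in EGFP-negative and 360 CPM in EGFP-positive cells. Both reporter libraries therefore exceeded the wild-type library of the same day, by 6.35-fold and 13.3-fold for Lgals3 and by 11.7-fold and 7.40-fold for Cd44. For these genes the wild-type value lay outside the range of the 2 EGFP libraries. Cd9 had 575 CPM in the wild-type, 358 CPM in the EGFP-negative and 499 CPM in the EGFP-positive library.

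**Figure D2:**
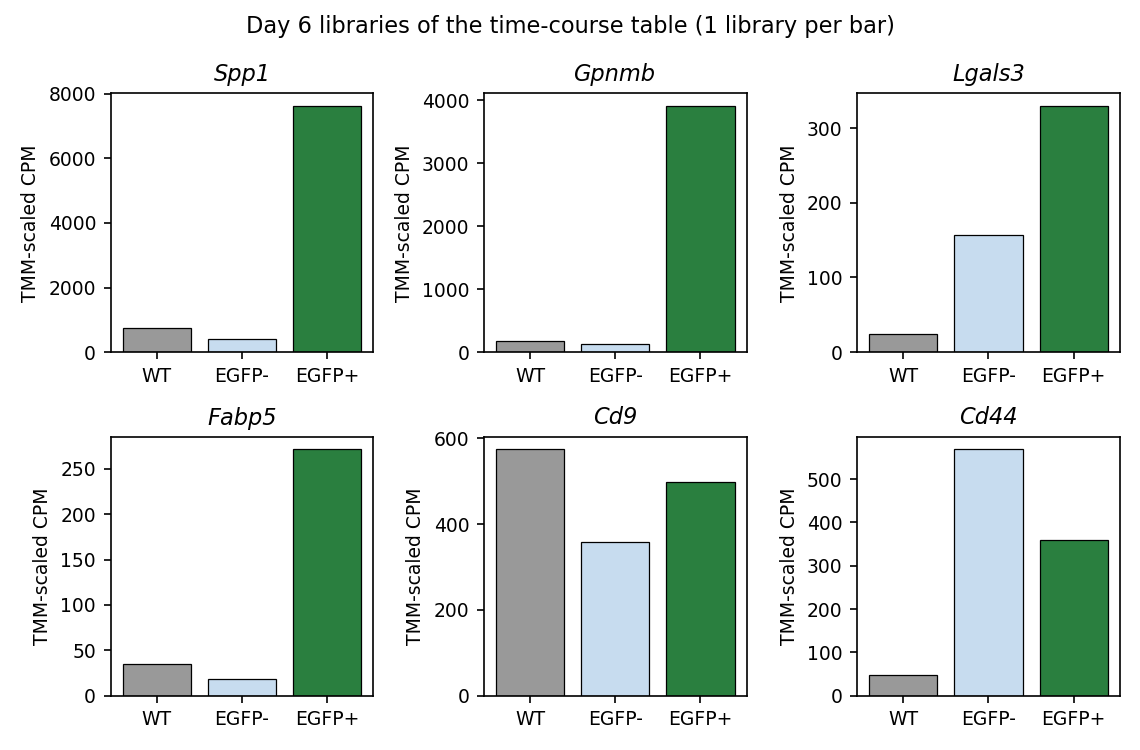
TMM-scaled CPM of each gene in the 3 day 6 libraries of the time-course table, wild-type (WT), EGFP-negative and EGFP-positive, with 1 library per bar and a separate linear axis per gene. Spp1, Gpnmb and Fabp5 have the WT bar between the EGFP bars, and Lgals3 and Cd44 have it below both.

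Monocyte markers summed to 5976 CPM in the EGFP-negative and 1823 CPM in the EGFP-positive library on day 6, and neutrophil markers to 12060 and 440 CPM. The monocyte chemokine receptor gene Ccr2 had 698 and 64.5 CPM and the neutrophil gene S100a8 had 3106 and 35.2 CPM, against 14.2 and 73.0 CPM in the wild-type library of that day. Among the wild-type, EGFP-negative and EGFP-positive libraries of day 6, Cd44 and both of these sums were highest in the EGFP-negative one. The EGFP-positive library had 360 CPM of Cd44 and the wild-type library 48.6 CPM. Their monocyte sums were 1823 and 1502 CPM and their neutrophil sums 440 and 852 CPM. Fn1 made up 779 CPM of the EGFP-positive monocyte sum and 1361 CPM of the wild-type one. F13a1 had 416 CPM in the EGFP-positive and 18.8 CPM in the wild-type library, Itga4 294 and 49.8 CPM, and Chil3 228 and 39.7 CPM. Besides Fn1, Plac8 (0.85 and 1.61 CPM) and Treml4 (0 and 0.268 CPM) were lower in the EGFP-positive library. The summed level of border macrophage markers went the other way, from 894 CPM in EGFP-negative to 3091 CPM in EGFP-positive cells, with all 10 detected in both. Stab1 alone went from 364 to 2392 CPM, and sham microglia had it at 822 CPM. By the size rule, 4 of the 7 border macrophage genes considered passed upwards and 1 downwards, the latter Clec10a with 58.2 and 2.40 CPM, while F13a1 had 392 and 416 CPM and Mrc1 49.4 and 60.2 CPM. The part of monocytes, neutrophils and border macrophages in the ratios was not tested.

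On day 14 the order between EGFP states held for Gpnmb, Spp1, Fabp5, Lgals3 and Cd9, and Cd44 was on the opposite side. Gpnmb had 27.6 CPM without and 102 CPM with EGFP (3.71-fold, 3.29 to 4.19), and Fabp5 had 15.0 and 50.6 CPM (3.38-fold, 2.87 to 4.02). Spp1 had 875 and 1616 CPM, a 1.85-fold difference that missed the size rule, and Cd9 had 1288 and 1928 CPM (1.497-fold). Lgals3 had 20.5 and 48.0 CPM (2.35-fold, 2.03 to 2.74), close to its ratio on day 6.

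Cd44 had 2.83 CPM without and 29.1 CPM with EGFP on day 14, a 10.3-fold difference (7.28 to 15.0), after a 1.58-fold difference in the other direction on day 6. In the day 14 table the EGFP-negative library had 8 of 12 monocyte and 8 of 10 neutrophil markers at 0 counts, and the EGFP-positive library 2 and 1. Endothelial and mural markers summed to 30.7 CPM without and 506 CPM with EGFP, with 12 and 4 of 15 at 0 counts, and all 8 considered were higher by the size rule. The part of these cells in the Cd44 difference was not tested. The day 14 table was counted and scaled apart, and its libraries were run on another sequencer, so levels are compared within a day only. Whether the ratios of Gpnmb, Spp1 or Fabp5 differ between the days was not tested, with 1 library per state and day.

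**Figure D3:**
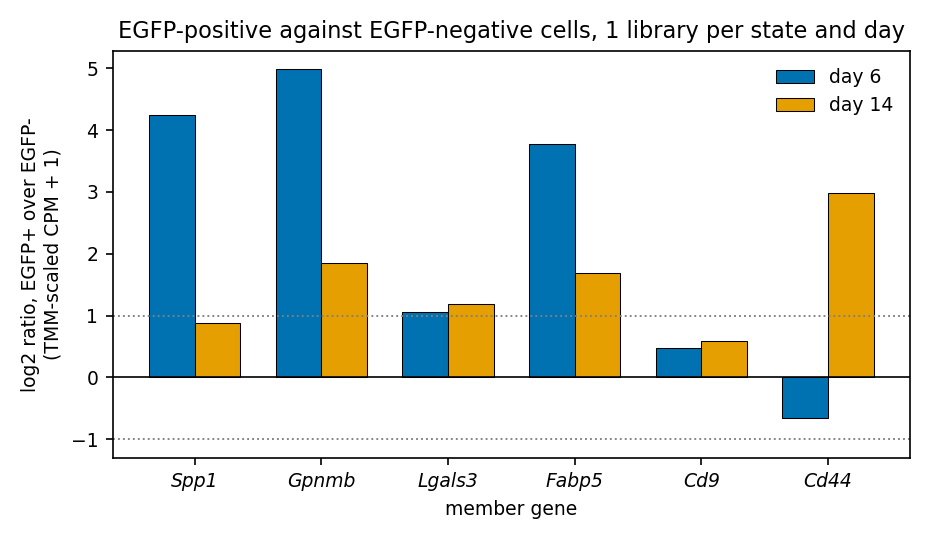
Log2 ratio of EGFP-positive over EGFP-negative cells (TMM-scaled CPM plus 1) for each gene on days 6 and 14, from 1 library per state and day. Dotted lines mark a log2 ratio of 1 in either direction. Gpnmb is highest on day 6 at 4.98, and Cd44 goes from -0.66 on day 6 to 2.98 on day 14.

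The Yy1 comparison asks how gene expression on day 6 differs where the transcription factor gene Yy1 is targeted in Cx3cr1-expressing cells. Yy1 itself had 76.1, 50.9 and 57.9 CPM in the 3 floxed controls and 32.5, 28.9 and 38.8 CPM in the 3 Yy1-deleted libraries. The groups did not overlap, but the log2 fold change of -0.88 had an adjusted p of 0.128 in edgeR's quasi-likelihood test with Benjamini-Hochberg adjustment over 12387 genes. The counts cover the whole gene and do not separate its floxed part.

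Of the 6 genes, Spp1, Gpnmb, Cd44 and Lgals3 fell in Yy1-deleted libraries to 27.96% to 37.1% of the control mean, Cd9 rose to 156% of it, and Fabp5 did not pass the test. Over all genes tested, 1.05% were called lower and 1.55% higher, 130 and 192 genes. With scaling by total counts that balance turned to 193 lower and 127 higher, with the calls for the 6 genes as in the main scaling. The groups overlapped for Fabp5 and did not overlap for any of the 5 genes that passed. Of all tested genes, 11.5% had deleted libraries wholly lower and 9.54% wholly higher. Genes that pass such a test tend to have groups apart, so the lack of overlap adds no support to the calls. The p-values below come from the fit across all genes. They set each difference between the groups against the spread between libraries of a group, as estimated in that fit. The genes were selected with earlier results of these data known.

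Spp1 had 1069, 1785 and 1472 CPM in floxed controls 1 to 3 and 367, 497 and 441 CPM in Yy1-deleted libraries 1 to 3. The lowest control lay well above the highest deleted library. The means were 1442 CPM ± 359 (SD, n = 3) and 435 CPM ± 65.2 (SD, n = 3), with a log2 fold change of -1.73 (SE 0.17, edgeR adjusted p = 2.12e-05). By p-value Spp1 was number 7 of the 130 genes called lower.

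In the same order Gpnmb had 294, 319 and 330 CPM in controls and 111, 100.2 and 139 CPM after deletion, with little spread in either group. Its means were 314 CPM ± 18.4 and 117 CPM ± 20.1 (SD, n = 3 each), and the log2 fold change came to -1.43 (SE 0.17, edgeR adjusted p = 0.000157). Gpnmb was number 13 of the 130 genes called lower.

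Cd44, the receptor, had 57.1, 76.5 and 63.3 CPM in controls and 21.6, 20.2 and 13.2 CPM after deletion, so its groups lay apart. The log2 fold change of Cd44 was -1.84 (SE 0.31, edgeR adjusted p = 0.0028). Lgals3 had 37.5, 46.1 and 50.8 CPM in controls and 10.2, 7.32 and 21.3 CPM after deletion, with deleted library 3 the highest of its group. The log2 fold change of Lgals3 was -1.79 (SE 0.42, edgeR adjusted p = 0.0292), and the call was lost in 5 of the 6 fits that leave out 1 library, with adjusted p from 0.0508 to 0.174 in those 5.

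Cd9 moved opposite to the other called genes. It had 453, 524 and 577 CPM in controls and 776, 863 and 793 CPM after deletion, a log2 fold change of 0.65 (SE 0.13, edgeR adjusted p = 0.0106). The call was lost without floxed control 1 (adjusted p = 0.113) or floxed control 2 (0.0506). Fabp5 had 11.6, 23.1 and 10.9 CPM in controls and 9.45, 0.302 and 11.4 CPM after deletion. Its groups overlapped and its log2 fold change of -1.11 had an SE of 0.87 (edgeR adjusted p = 0.679). Deleted library 2 had 3.75 counts of Fabp5, and across the alternatives the log2 fold change ran from -2.26 to -0.54.

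**Figure D4:**
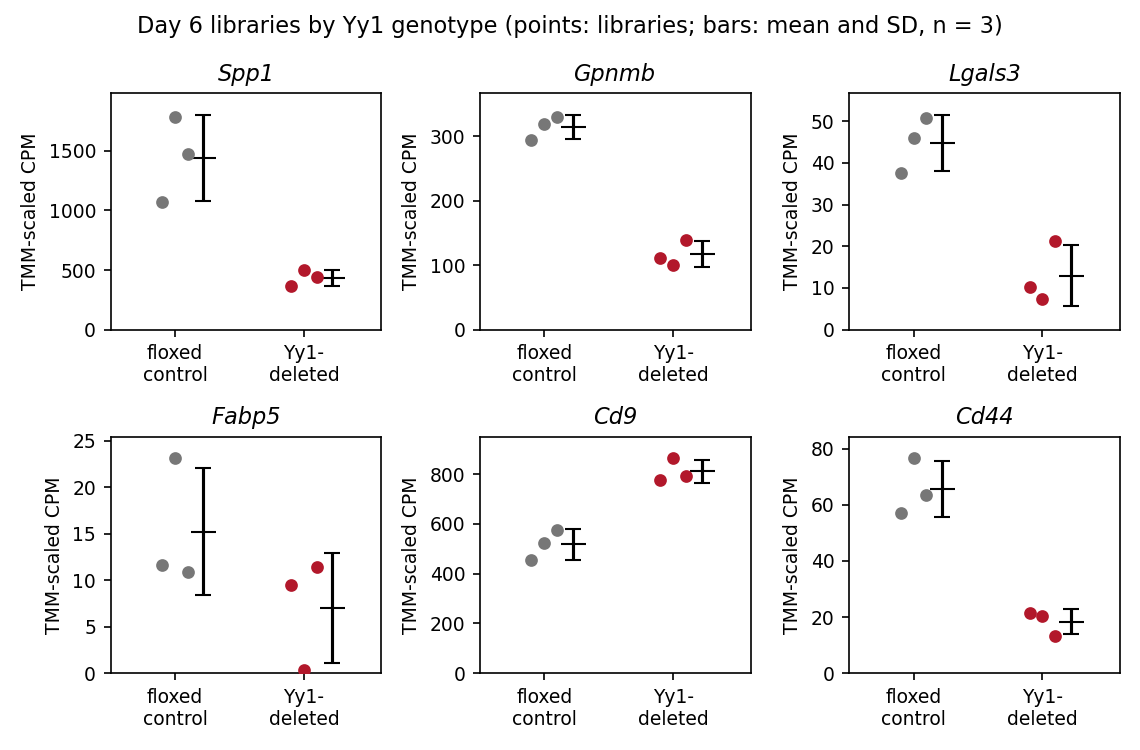
TMM-scaled CPM of each gene in the 3 floxed control and 3 Yy1-deleted libraries of day 6, one panel per gene with its own linear axis from 0. Points are libraries and bars are mean and SD. The Spp1, Gpnmb, Lgals3 and Cd44 groups are separated with deleted libraries lower, the Cd9 groups with deleted libraries higher, and the Fabp5 groups overlap.

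Per kilobase of exon, Spp1 was above Cd9 in each floxed control (649, 1083 and 893 against 222, 256 and 283 CPM per kb) and below it in each Yy1-deleted library (223, 302 and 267 against 380, 422 and 388 CPM per kb). Gpnmb and then Lgals3 came next in all 6 libraries. Together the 6 genes took 0.197%, 0.292% and 0.257% of counts in controls and 0.125%, 0.144% and 0.136% after deletion. Set beside the floxed controls, the wild-type library of day 6 had lower values for Spp1, Gpnmb, Lgals3 and Cd44, a higher value for Fabp5, and a Cd9 value within their range. That library was counted and scaled in another table.

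Cell type markers differed between the genotypes too. The 13 homeostatic microglial genes were all called higher in Yy1-deleted libraries, with log2 fold changes from 0.40 to 2.70, and 9 to 11 of them were called when 1 library was left out, the 9 without floxed control 1. Their summed level was 16610 to 18180 CPM in controls and 27310 to 29560 CPM in deleted libraries. Monocyte markers summed to 925 to 1329 CPM in controls and 654 to 767 CPM in deleted libraries, most of it Fn1 (736 to 1091 CPM and 551 to 684 CPM), with 2 of 11 tested called lower, 1 of 12 at 0 in each control and 0 to 4 at 0 in deleted libraries. Border macrophage markers summed to 1071 to 1406 CPM and 561 to 799 CPM, with 2 of 7 tested called lower (F13a1, which is also on the monocyte list, and Stab1), 1 to 2 of 10 at 0 in controls and 4 at 0 in deleted libraries. Stab1, which sham microglia had at 822 CPM, made up most of the border macrophage sum, with 959 to 1316 CPM and 539 to 744 CPM. Of the border macrophage markers 1 was called without floxed control 1 or without deleted 1, and of the monocyte markers 1 was called in 5 of the 6 fits that leave out a library, all but that without deleted 1. Neutrophil markers summed to 810 to 892 CPM and 1218 to 1525 CPM, most of it Csf3r, which sham microglia also had at 654 CPM, while S100a8 lay at 47.1 to 78.4 CPM and 54.8 to 84.1 CPM. Endothelial and mural markers summed to 649 to 918 CPM and 436 to 580 CPM. The part of these markers in the fall of Spp1, Gpnmb, Cd44 and Lgals3 and in the rise of Cd9 was not tested.

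Other genes of the same pathways were looked at in lists that leave out the 6. Of 22 tested genes of lipid uptake, storage and efflux, 5 fell in Yy1-deleted libraries and 1 rose, against 1.05% lower and 1.55% higher over all genes. The median log2 fold change of the list was -0.13 against -0.02 over all genes. Cd36, a fatty acid and lipoprotein scavenger receptor, had 37.3, 58.9 and 43.5 CPM in controls and 4.53, 3.14 and 3.16 CPM after deletion (log2 fold change -3.69, edgeR adjusted p = 0.000154). Msr1, another scavenger receptor, fell by 2.27 on the log2 scale (adjusted p = 0.000494). The lipid carrier gene Apoe fell by 0.71 (adjusted p = 0.00114) and the lipid droplet coat gene Plin2 by 0.92 (adjusted p = 0.0164). Nceh1 (-0.91), a cholesterol ester hydrolase gene, and Trem2 (0.68), a lipid-sensing receptor gene, complete the called genes and are named after their values were seen. When any 1 floxed control was left out, 3 genes of the list were called lower, and none was called higher without floxed control 1, floxed control 2 or deleted 2. Abca1, the main cholesterol exporter gene, and Lpl, a lipase gene, had log2 fold changes of 0.01 (adjusted p = 0.983) and -0.49 (adjusted p = 0.235).

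Among 24 genes of disease-associated microglia 4 rose and 2 fell, with a median of 0.25 against -0.02 over all genes, of which 1.55% were called higher and 1.05% lower. Clec7a, a pattern receptor gene (1.41, edgeR adjusted p = 0.00124), and the protease gene Ctsd (0.42, adjusted p = 0.0132) rose, and the inhibitory receptor gene Lilrb4a fell by 1.24 (adjusted p = 9.4e-05), as did Apoe. B2m and Trem2 are the others that rose, named after their values were seen. When 1 library was left out, 1 to 4 of these genes were called higher, the 1 without floxed control 1 or 2, and 2 were called lower in each fit.

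Partners of the 6 genes were looked at beside all tested genes, of which 1.55% were called higher and 1.05% lower. Of 7 tested integrin genes whose products bind osteopontin, Itgb5 (0.68, edgeR adjusted p = 0.00485) and Itga9 (1.00, adjusted p = 0.02) rose, and the median was 0.35. Of 14 other tetraspanin and partner genes Cd81 rose (0.62, adjusted p = 0.00736) and Ptgfrn, which encodes a partner of CD9 and CD81, fell by 1.43 (adjusted p = 0.00335). The Ptgfrn call was lost without floxed control 1, and the Cd81 call without floxed control 1, floxed control 2 or deleted 3. Of the integrin genes 1 was called higher without any 1 of the floxed controls or deleted 3. Of 5 tested genes for osteopontin-cleaving proteases Ctsd rose, and 0 were called without floxed control 1, floxed control 2 or deleted 3.

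Among 10 tested genes of hyaluronan handling and CD44 anchoring, edgeR called 0, with 0 higher and 1 lower at an unadjusted p under 0.05 and 0 by DESeq2 or limma-voom. It called 0 of 4 other galectin genes (1 higher and 1 lower at an unadjusted p under 0.05), where DESeq2 and limma-voom each called 1 higher. It called 0 of 5 genes for regulators and relatives of Gpnmb, with 0 at an unadjusted p under 0.05 and 0 by DESeq2 or limma-voom. The single other fatty acid binding gene tested was not called by edgeR, DESeq2 or limma-voom, nor at an unadjusted p under 0.05. The sister genes of Spp1 in its gene cluster (Ibsp, Dmp1, Mepe and Dspp) had too few counts to test.

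**Figure D5:**
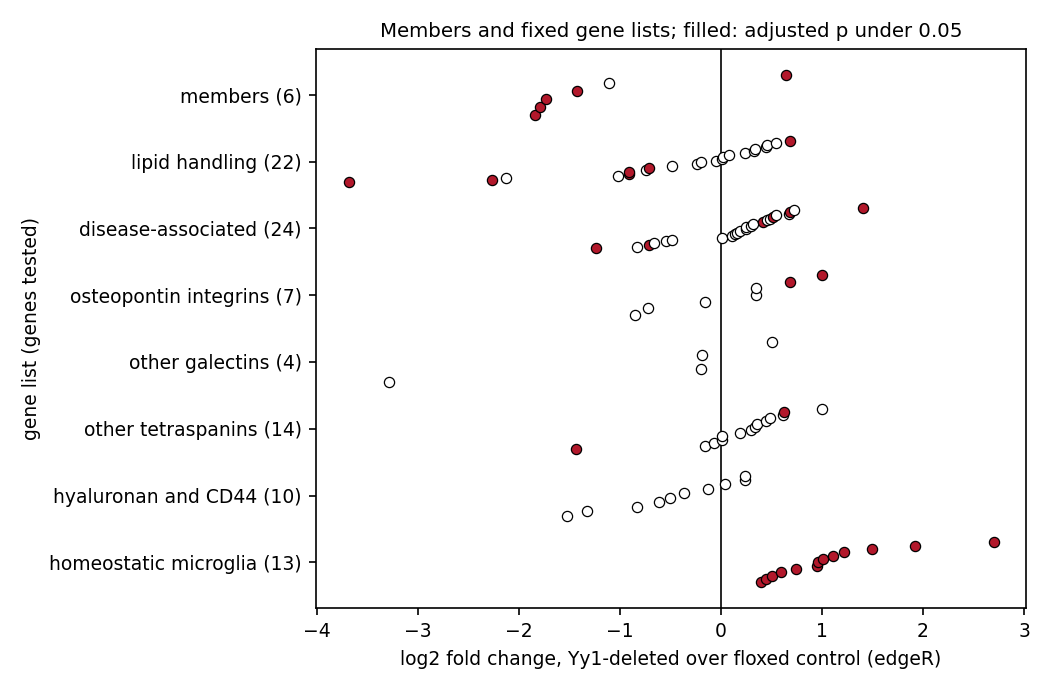
Log2 fold change of Yy1-deleted over floxed control libraries (edgeR) for the 6 genes (members) and the tested genes of 7 lists, 1 point per gene, spread vertically by rank within its list. Filled points have an adjusted p under 0.05. The 6 genes are split between 4 called lower, Fabp5 not called and Cd9 called higher, and the 13 homeostatic genes are all called higher.

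In the unreplicated libraries the size rule put 6 of 17, 6 of 15, 5 of 16 and 5 of 15 considered genes of the lipid list above sham on days 1, 6, 14 and 28, and none below. The rule was met upwards by 5.59%, 6.25%, 12.9% and 11.1% of all genes considered on these days. Downwards it was met by 2%, 0.0846%, 6.82% and 15.2%. Medians of the list were 0.73, 0.70, 0.73 and 0.25, against -0.001, -0.095, -0.025 and 0.152 over all genes. Between EGFP states 14 of 19 were higher and 2 lower on day 6, and 7 of 16 higher and none lower on day 14. Over all genes considered, 7.53% were higher and 11.9% lower on day 6, and 11.2% and 10.9% on day 14. The list medians were 1.47 and 0.68, against -0.042 and 0.028 over all genes. Lpl had 38.4 CPM in sham and 2001, 426, 464 and 207 CPM on days 1, 6, 14 and 28, so it had its highest value on day 1 as Spp1 did. Apoe, with 130 CPM in sham, had 195, 6183, 3862 and 2513 CPM on these days and its highest wild-type value on day 6, as Gpnmb did.

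Among receptors for osteopontin, the size rule put 3 of the 8 integrin genes considered above sham on day 1 and none below. Their median was -0.13 against -0.001 over all genes, of which 5.59% lay above sham by the rule and 2% below. The 3 were Itga4, with 4.69 CPM in sham and 36.8 CPM on day 1, Itga5 (35.0 and 371.6 CPM) and Itga8 (0.525 and 26.8 CPM), named after their values were seen. The integrin genes with the highest levels did not pass the rule. Itgb5 had 892 CPM in sham and 271 CPM on day 1, Itgav 586 and 405 CPM, and Itgb1 436 and 531 CPM. Of 6 genes of hyaluronan handling and CD44 anchoring considered on day 1, 3 were above sham by the rule and none below. Srgn, which encodes a CD44-binding proteoglycan, passed with 98.7 CPM in sham and 652 CPM on day 1. Vcan (2.14 and 128 CPM), also on the monocyte list, and Ezr (8.60 and 104.5 CPM) were the others, named after their values were seen. Msn, whose product ties CD44 to the cell skeleton, had 655 CPM in sham and 1062 CPM on day 1 and did not pass.

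The genes closest in pattern to each of the 6 were sought by Pearson's r of log2(CPM + 1), over the 7 libraries of the time-course table among 9358 genes and over the 6 Yy1 libraries among 12363 genes. These r values are a description. They rest on few points, which share libraries and depth. Over the 7 libraries the highest were Lpl (0.96), Eid1 (0.96) and Rai14 (0.96) for Spp1 and Dtnbp1 (0.99), Ankrd12 (0.98) and Rap2b (0.98) for Gpnmb. For Lgals3 they were Thbs1 (0.98), Sh3pxd2b (0.97) and AI504432 (0.97), and for Fabp5 Rap2b (0.97), Dtnbp1 (0.97) and Mpp1 (0.96). Gpnmb and Fabp5 had the pair Dtnbp1 and Rap2b in common, and their own r was 0.99. For Cd44 they were Cybb (0.98), which encodes the core of the phagocyte oxidase, Xylt1 (0.98) and Ikbke (0.98), and for Cd9 Ednra (0.93), Sdc2 (0.92) and Dpysl3 (0.92).

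Over the 6 Yy1 libraries, with both genotypes pooled, the closest were Cpd, Apom and Pcdh7 for Spp1 (0.99 each) and Itih5, Zfp944 and Tagln for Gpnmb (1.00 each after rounding). Cd44 was closest to Anxa1, Rabgap1l and Eepd1 (0.99 each), and Lgals3 to Sde2 (1.00), Rbbp6 (0.99) and Rps6kb1 (0.99). Cd9 was closest to Cttnbp2nl (1.00), Fcrls (1.00) and Tanc2 (0.99), of which Fcrls is on the homeostatic list. Fabp5 was closest to Actr5, Mir6236 and Rpa2 (0.99 each). It had 0.302 CPM (3.75 counts) in deleted library 2 and 9.45 to 23.1 CPM in the others, so that library weighs heavily in these r.

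Among the 6 genes themselves, the pairs followed 2 patterns in the time-course table. Gpnmb with Fabp5 had an r of 0.99 and Lgals3 with Cd44 0.93 over the 7 libraries, and over the 5 wild-type libraries alone these were 0.99 and 0.92. Spp1 had r of 0.75 to 0.81 with Gpnmb, Lgals3 and Fabp5. Cd9 had its highest r with Spp1 (0.72) and the lowest with Cd44 (0.03). In the Yy1 table Cd9 had negative r with each of the other 5 genes, from -0.92 with Gpnmb to -0.63 with Fabp5. These r pool both genotypes without removing the group means, so they largely restate the genotype differences given above.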

How the data were processed

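Gene counts came as 3 tables deposited by the authors with the same 24421 genes. The wild-type and EGFP tables held raw counts per gene, and the Yy1 table held expected counts as deposited, of which 3.55% to 4.75% per library were not whole. Expected counts were rounded before testing. For tools and builds, the submitters' processing notes list STAR, featureCounts, edgeR, mm10 and GRCm38 without versions. Total counts were 10.5 to 52.6 M (1e6) per library. Levels are TMM-scaled CPM, with a pseudocount of 1 in log2 ratios. Intervals of fold ratios are exact conditional binomial ones (95%), computed on halved counts. The Yy1 groups (n = 3 each) went through edgeR 4.0.16 under R 4.3.3 (filterByExpr, TMM, two-sided quasi-likelihood F-test, Benjamini-Hochberg threshold 0.05, no block). Alternatives were RLE factors, total counts, no filter, DESeq2 1.42.0, voom in limma 3.58.1, a replicate block and leaving out each library. The 6 genes, the gene lists and tests were chosen with earlier results of these data known. Besides the 6 genes, the text names the 3 genes most correlated with each per table, up to 4 called and 3 highly expressed genes per pathway list, Yy1, Igf1 and cell markers, and says where a gene falls outside this rule. Lengths and positions are from GENCODE vM21 and promoters from RefSeq (GRCm38.p6). Protein sequences were not used here.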

Additional observations from a re-analysis of the deposited data

Results flagged for a closer look

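Cd44, the hyaluronan receptor gene, was the only one of the 6 genes with EGFP-positive cells on opposite sides of EGFP-negative cells on the 2 days. Its log2 ratio of EGFP-positive over EGFP-negative cells was -0.66 on day 6 and 2.98 on day 14. Each value rests on 1 library per state, and the difference between the days was not tested.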

How the results depend on the processing

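The 4 wild-type comparisons and both EGFP comparisons rest on 1 library per group, so only counting error could be given, and sham counts of 12 to 34 for Gpnmb, Fabp5 and Lgals3 limit their folds. With a pseudocount of 0.1 or 5 CPM, the Gpnmb log2 ratios to sham moved by up to 1.91 and -2.06. Other scalings shifted the median ratio of all genes by up to 0.17. In the Yy1 comparison Spp1, Gpnmb and Cd44 were called under all 12 alternatives, Cd9 under 10, Lgals3 under 7 and Fabp5 and Yy1 under 0, and no direction reversed. Leaving out 1 library gave log2 fold changes from -2.35 to -1.51 for Lgals3 (lost without each control in turn and without deleted 1 or 2) and from 0.56 to 0.74 for Cd9 (lost without control 1 or 2), with 0 to 1 of the 6 genes called higher. Genes called higher were 192, or 127 with total counts, 309 unfiltered, 380 with DESeq2, 289 with limma-voom and 58 to 166 when 1 library was left out. Genes called lower were 130, or 193 with total counts, 266 unfiltered, 327 with DESeq2, 192 with limma-voom and 39 to 151 when 1 library was left out. A replicate block gave 219 higher and 194 lower. Deviations of same-numbered samples from their group means correlated at -0.008, -0.048 and -0.015, and those of other pairs at -0.028 to 0.04. With 3 samples per group these values cannot exclude a shared litter or day, and the labels do not say what the numbers mark. The minimum of 20 CPM set the counts past the size rule. At 50 and 5 CPM, genes higher were 203 and 750 on day 1, 215 and 895 on day 6, 550 and 1635 on day 14, 325 and 981 between EGFP states on day 6 and 327 and 1612 on day 14, and 465 at 50 CPM on day 28. Genes lower were 183 and 1485 on day 14, 352 and 2970 on day 28, 486 and 1575 between EGFP states on day 6 and 338 and 1285 on day 14. With a pseudocount of 5, genes lower were 95 on day 1 and 3 on day 6. Of the 6 genes, 2 were higher at 50 CPM on day 6 and 2 between EGFP states on day 14. The causes of these shifts were not tested, beyond fewer or more genes being considered.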
